A study of Rattus norvegicus with 15 samples.

Results

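Defa5, S100a8, Ncf1, Gzmb, Slfn4 and Cd53 are genes best known from white blood cells, and here their log2 ratios were followed over 5 times of dibutyryl cAMP (dbcAMP) in cultured rat dorsal root ganglion (DRG) cells. The members were every probe whose symbol in the platform annotation was one of these 6 genes. That gave 8 probes of the 5088 on the array, and 6 of the 4153 genes with a symbol, because Gzmb had 3 probes. The genes were chosen by their large changes at the late times, in opposite directions, so the values at 12 and 18 h are a description and carry no test. Only the values at 1, 3 and 6 h were tested for them.

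Cells were dissociated from L4 and L5 DRGs of juvenile rats and kept in Sato medium, on poly-L-lysine or on myelin, and which array had which substrate is not given in the sources used here. At each of 1, 3, 6, 12 and 18 h, RNA of cells given 1.5 mM dbcAMP, an analog of cAMP that crosses membranes, was hybridised in Cy5 with RNA of cells in medium alone in Cy3, on 3 spotted-oligonucleotide arrays. Both groups were total RNA of the mixed DRG culture, which can hold neurons, glia, fibroblasts and resident or blood-borne leukocytes. The 1 h group is 1 h in its own label, while the treatment text of the labels has 0 h in that place.

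Every value below is a log2 ratio of treated over control RNA, so 0 means no difference, -1 a halving and 1 a doubling, and no value gives the level of a transcript. In a mixed culture, fewer cells of a type and less RNA per cell cannot be told apart. The deposited ratios of an array had a median of 0.997 to 1.02. On the log2 scale 9 arrays had an SD of 0.357 to 0.434. The remaining 6 were wider, from 0.627 to 0.703, and comprised every 18 h array, the first pair of 12 h and the third of 6 h. An array lacked a ratio for 28 to 105 probes, arrays of the same time correlated over probes at 0.236 to 0.646, and 0 pairs of arrays were identical. The dyes were never swapped, so any dye bias of a probe is part of all its ratios. No source says whether arrays 1 to 3 of a time are different cultures. The p-values then reflect nothing but how far arrays of the same time lie apart, which may be technical. In the main fit this spread was shared, for each probe, by the arrays of all times. It is therefore not the SD printed for the time tested. The arrays of 12 and 18 h thus also enter the p-values of that fit at 1, 3 and 6 h.

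Neutrophils carry granules of antimicrobial peptides and enzymes, among them the alpha-defensins, and their cytosol is rich in the calcium-binding pair S100a8 and S100a9. On activation they assemble the NADPH oxidase, which makes superoxide, from membrane subunits such as Cybb and Cyba and cytosolic ones such as Ncf1. Cytotoxic T cells and natural killer (NK) cells kill through another granule, in which perforin (Prf1) opens a way for granzymes such as Gzmb, held on the proteoglycan serglycin (Srgn). Schlafen genes such as Slfn4 are induced by interferon in myeloid cells, and the tetraspanin Cd53 is a surface protein of most leukocytes. cAMP acts largely through protein kinase A and the factor CREB, which binds the cAMP response element (CRE) in promoters.

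In the GRCr8 rat assembly Defa5 lay at chr16:77044994-77047318, S100a8 at chr2:178464095-178465223, Ncf1 at chr12:28121816-28131080, Gzmb at chr15:34459007-34462469, Slfn4 at chr10:68492135-68515674 and Cd53 at chr2:197040369-197087925. RefSeq gives Defa5 the older names Defa, ratNP-1 and ratNP-2, S100a8 the name Mrp8, and Slfn4 the name Slfn3, which is also that of its neighbour. Defa5 stood among 14 alpha-defensin genes, 3 of them pseudogenes, within 204 kb of chromosome 16. Gzmb was 1 of 12 granzyme genes within 539 kb of chromosome 15, and Slfn4 1 of 8 Schlafen genes within 207 kb of chromosome 10, only 0.141 kb from Slfn3. Members of such clusters can be near-identical in parts. Their sequences were not compared here, and which transcript each probe reads was not tested.

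Promoters of 4 of the 6 genes were in the RefSeq table, and all 4 are shown. At 18 h Slfn4, Cd53 and 2 of the 3 probes of Gzmb had higher ratios, and Ncf1 a lower one. Whether a CRE plays a part in these ratios was not tested. Each line gives 250 bases, 5′ to 3′ on the gene's own strand, that end just before the start used in that table. For Gzmb this start is the outer end of the annotated gene, but it lies 85 bases inside the gene for Slfn4, 69 for Ncf1 and 29 for Cd53, so the last bases of those 3 windows are part of the annotated gene. Capitals mark matches, on either strand, to the CRE letters TGACG (reverse CGTCA) and TGACGT (reverse ACGTCA), and to the AP-1 letters TGACTCA (reverse TGAGTCA).
Gzmb, chr15:34462470-34462719, minus strand: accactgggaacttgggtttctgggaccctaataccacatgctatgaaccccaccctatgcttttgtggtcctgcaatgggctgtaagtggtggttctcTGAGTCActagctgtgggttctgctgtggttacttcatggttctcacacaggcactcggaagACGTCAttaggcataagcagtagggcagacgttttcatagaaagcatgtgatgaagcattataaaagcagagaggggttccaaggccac
Slfn4, chr10:68491970-68492219, plus strand: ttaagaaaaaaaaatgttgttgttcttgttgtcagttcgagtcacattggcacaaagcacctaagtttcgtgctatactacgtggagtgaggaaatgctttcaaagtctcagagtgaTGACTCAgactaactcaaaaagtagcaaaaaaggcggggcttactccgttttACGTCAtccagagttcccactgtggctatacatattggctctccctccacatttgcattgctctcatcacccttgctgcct
Cd53, chr2:197087897-197088146, minus strand: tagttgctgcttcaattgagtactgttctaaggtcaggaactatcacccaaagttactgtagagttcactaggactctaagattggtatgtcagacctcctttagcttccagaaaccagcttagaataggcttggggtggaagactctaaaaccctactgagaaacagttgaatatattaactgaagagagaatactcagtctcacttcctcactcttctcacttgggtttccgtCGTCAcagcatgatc
Ncf1, chr12:28121635-28121884, plus strand: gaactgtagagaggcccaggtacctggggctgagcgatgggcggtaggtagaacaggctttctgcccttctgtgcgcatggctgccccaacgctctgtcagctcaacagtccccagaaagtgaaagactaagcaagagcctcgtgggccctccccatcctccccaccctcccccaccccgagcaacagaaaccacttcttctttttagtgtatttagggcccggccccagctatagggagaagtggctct
The Gzmb window held an AP-1 match whose first base lay 151 bases before the table's start and a CRE match of 6 letters 89 bases before it. The Slfn4 window held the same pair of matches, at 133 and 81 bases. Cd53 had a CRE match of 5 letters at 15 bases, and the Ncf1 window had no match. The CRE matches of Slfn4 and Cd53 thus lay within the annotated gene, and both AP-1 matches and the CRE match of Gzmb before it. Among 33469 RefSeq promoters of this length, 18.2% held TGACG, 6.95% TGACGT, which always includes a match of TGACG, 1.59% the palindrome TGACGTCA and 4.05% TGACTCA. None of the 4 windows held the palindrome. A match is a description of letters, not of binding.

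Defa5, an alpha-defensin that permeabilises microbial membranes, had the lowest mean ratio of all 5006 probes with values at 18 h. Its 3 arrays read -0.01, 0.09 and 0.42 at 1 h, and -0.57, -0.67 and -0.58 at 3 h. They read -1.85, -1.65 and -0.20 at 6 h, -1.88, -1.50 and -1.78 at 12 h, and -2.53, -3.40 and -3.08 at 18 h. All 12 arrays from 3 h on lay below 0, and array 3 at 6 h, 1 of the arrays of wide spread, stood apart from the other two. The mean at 18 h was -3.0 ± 0.44 (SD, n = 3), at which control RNA gave 8.02 times the signal of treated RNA. Ordered by mean, 18 h was lowest and its arrays did not overlap those of 12 h, the ranges of 12, 6 and 3 h overlapped with their neighbours, and 3 h did not overlap 1 h.

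S100a8, which with S100a9 forms calprotectin, a protein that withholds metals from microbes, followed a similar course. Its arrays read 0.04, -0.14 and 0.00 at 1 h, -0.63, -0.42 and -0.19 at 3 h, and -0.81, -0.90 and -0.39 at 6 h. They read -0.68, -1.08 and -0.87 at 12 h and -2.21, -2.28 and -1.77 at 18 h. All arrays from 3 h on were again below 0. The mean at 18 h was -2.09 ± 0.28 (SD, n = 3), a 4.24-fold excess in control RNA and the 23rd lowest of 5006 probes. The 18 h arrays did not overlap those of 12 h, and those of 3 h did not overlap those of 1 h.

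Ncf1, the p47phox subunit that brings the cytosolic part of the NADPH oxidase to the membrane, was below 0 on every array at 18 h, but far from evenly. Its arrays read -0.24, -0.07 and -0.04 at 1 h, -0.14, -0.09 and -0.20 at 3 h, and 0.29, 0.06 and 0.30 at 6 h. At 12 h they read 0.91, -0.26 and -0.06, and at 18 h -4.30, -0.67 and -2.38. The 18 h mean of -2.45 ± 1.82 (SD, n = 3), the 8th lowest, therefore rested on arrays that differed by 3.63 on the log2 scale. No array at another time came near the lower 2 of these.

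**Figure D1:**
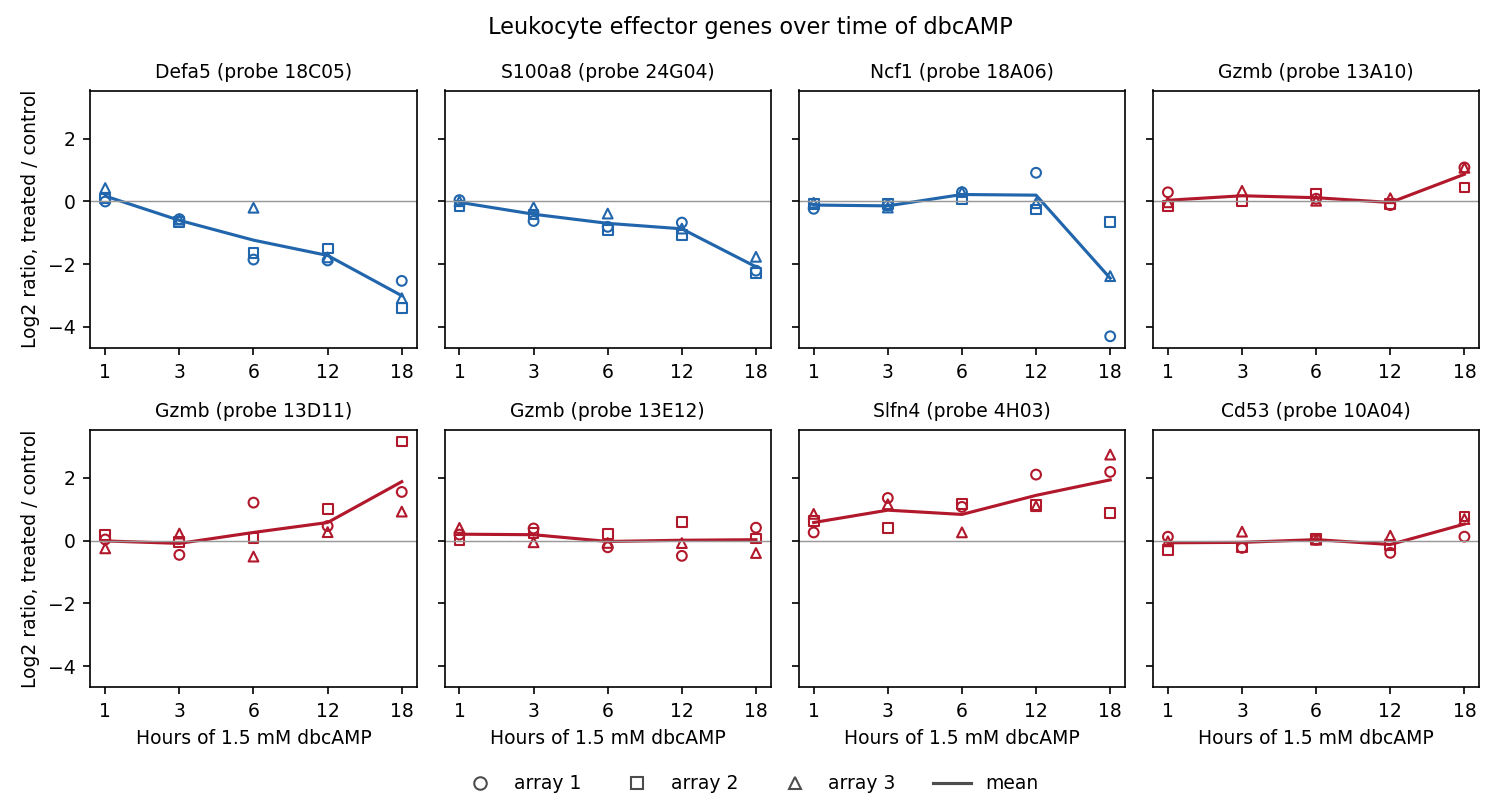
Log2 ratio of treated over control RNA (vertical axis, the same in all panels) against hours of 1.5 mM dbcAMP (horizontal axis, times evenly spaced) for the 8 probes. Symbols are arrays 1 to 3, lines join means, blue marks genes below 0 at 18 h and red the others; Defa5 and S100a8 stepped down from 3 h, Ncf1 stood low at 18 h alone, and Gzmb probe 13E12 stayed near 0.

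Gzmb, a serine protease that triggers death of target cells, gave 3 different pictures from 3 probes, designed from different GenBank records and all on probe plate 13. Probe 13D11 read 0.04, 0.18 and -0.24 at 1 h, -0.45, -0.03 and 0.23 at 3 h, and 1.21, 0.08 and -0.51 at 6 h. It then read 0.47, 1.00 and 0.27 at 12 h and 1.55, 3.16 and 0.93 at 18 h, a mean of 1.88 ± 1.15 (SD, n = 3) or 3.68-fold, the 10th highest of 5006 probes. Array 2 at 18 h was the highest of the 15. Probe 13A10 read 0.29, -0.15 and -0.03 at 1 h, 0.02 and 0.33 at 3 h, where array 1 had no ratio, and 0.08, 0.25 and 0.02 at 6 h.

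At 12 h this probe of Gzmb was still at -0.12, -0.09 and 0.10, and at 18 h it read 1.08, 0.44 and 1.07, a mean of 0.86 ± 0.37 (SD, n = 3) or 1.82-fold, in 173rd place. Those 18 h arrays lay above all its earlier ones. Probe 13E12 had 18 h arrays of 0.41, 0.07 and -0.39, a mean of 0.03 ± 0.40 (SD, n = 3) in 2429th place, and its 15 values ran from -0.48 to 0.60 with overlapping ranges at all neighbouring times. At 18 h probe 13D11 exceeded 13E12 by 1.85 ± 1.08 and 13A10 exceeded 13E12 by 0.83 ± 0.57 (SD of the difference, n = 3). Over arrays, 13A10 and 13D11 correlated at r = 0.445 (14 arrays), and 13E12 with them at -0.05 and -0.07. The Gzmb gene therefore has no single ratio here.

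Slfn4, a Schlafen gene of myeloid cells, was above 0 on 15 of 15 arrays. It read 0.26, 0.62 and 0.85 at 1 h, 1.36, 0.40 and 1.16 at 3 h, and 1.08, 1.17 and 0.26 at 6 h. It read 2.10, 1.13 and 1.10 at 12 h and 2.19, 0.88 and 2.74 at 18 h. The 18 h mean was 1.94 ± 0.96 (SD, n = 3), 3.83-fold and the 9th highest, and array 2 was the low one of the 3. Means ranked 1, 6, 3, 12 and 18 h, and every pair of neighbours in that order overlapped. Already at 1 h, at 0.58 ± 0.30, the probe lay above 98.36% of all probes tested, and a constant dye bias cannot be told apart from a change in that part of the ratio.

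Cd53, a tetraspanin that organises receptors in leukocyte membranes, changed least of the members apart from Gzmb probe 13E12. It read 0.13, -0.31 and -0.02 at 1 h, -0.23, -0.22 and 0.29 at 3 h, 0.03, 0.04 and 0.03 at 6 h, and -0.39, -0.14 and 0.16 at 12 h. At 18 h it read 0.13, 0.77 and 0.69, a mean of 0.53 ± 0.35 (SD, n = 3) or 1.44-fold, in 544th place. The 18 h arrays lay just above those of 6 h, and array 1 read 0.13 at both 1 and 18 h.

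At 1 h, 0 of the 8 probes passed the test against 0 (limma with Benjamini-Hochberg adjustment over all probes, adjusted p under 0.05), against 2.33% of all 5055 probes tested. By unadjusted p under 0.05 the count was also 0, against 9.81% of all probes, and adjusted p ran from 0.639 for Slfn4 to 0.999 for Gzmb probe 13D11. At 3 h again 0 of 8 passed, against 2.87% of all probes, while 3 had an unadjusted p under 0.05, against 10.2% of all probes. These were Defa5 at -0.61 ± 0.05 (adjusted p = 0.359), S100a8 at -0.41 ± 0.22 (adjusted p = 0.184) and Slfn4 at 0.97 ± 0.51 (adjusted p = 0.164, SD and limma, n = 3 each). All 3 passed when limma weighted arrays by their quality, with adjusted p = 0.00382, 0.00422 and 0.00594. Here and below, the share of all probes that passed with array weights is not given, so those calls have no background beside them.

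At 6 h, 2 of 8 probes passed, both lower, against 4.19% of all 5058 probes in either direction. Defa5 fell by 1.24 on the log2 scale (SD 0.90, n = 3, limma adjusted p = 0.0114) and S100a8 fell by 0.70 (SD 0.27, adjusted p = 0.0096), each below 0 on 3 of 3 arrays. Both also passed in a fit of the 9 arrays of 1, 3 and 6 h, without the late arrays. Without array 1 the adjusted p was 0.113 for Defa5 and 0.0720 for S100a8, without array 2 it was 0.0864 and 0.0769, and with the 3 arrays of 6 h alone 0.351 and 0.238. Without array 3, Defa5 was at -1.75 (adjusted p = 0.000265) and S100a8 at -0.86 (adjusted p = 0.00983). Slfn4 was at 0.84 ± 0.50 (SD, n = 3, limma adjusted p = 0.178), and with array weights it passed as the third member, at 1.03 (adjusted p = 0.0435). Ncf1 was at 0.22 (adjusted p = 0.875), the probes of Gzmb at 0.12, 0.26 and -0.03, and Cd53 at 0.03.

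The difference between 6 h and 1 h, in which a constant dye bias cancels, passed for 0 of 8 probes and for 0.139% of all 5038 probes tested. By unadjusted p under 0.05 the count was 2, against 5.1% of all probes. Defa5 differed by -1.40 (SE 0.35, limma adjusted p = 0.327) and S100a8 by -0.67 (SE 0.19, adjusted p = 0.530). With array weights both passed, at -1.77 (adjusted p = 0.00144) and -0.76 (adjusted p = 0.0495), and without array 3 of 6 h Defa5 passed at -1.92 (adjusted p = 0.00244). For Slfn4 the difference was 0.26 (SE 0.44, adjusted p = 0.999).

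The distance between the highest and the lowest of the 8 means widened from 0.70 at 1 h to 1.58 at 3 h, 2.07 at 6 h, 3.17 at 12 h and 4.94 at 18 h. The median size of the 8 means was 0.09 at 1 h, where that of all probes was 0.13. It was 0.18 against 0.12 at 3 h, 0.24 against 0.16 at 6 h, 0.39 against 0.20 at 12 h and 1.91 against 0.26 at 18 h. The distances at 12 and 18 h and the last 2 comparisons of medians follow from how the genes were chosen.

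**Figure D2:**
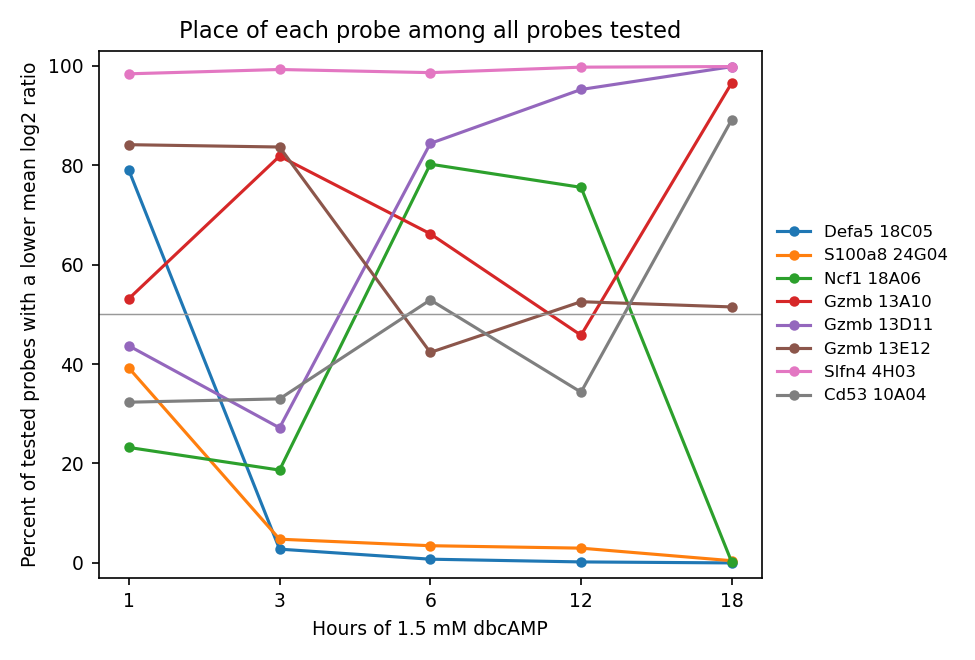
Percent of all tested probes with a lower mean log2 ratio than each of the 8 probes (vertical axis) at each time (horizontal axis, times evenly spaced), with the middle of all probes at 50. Slfn4 lay near the top from 1 h, and Defa5 and S100a8 near the bottom from 3 h. Ncf1 was near the bottom at 18 h alone, where Cd53 reached 89.13. Gzmb probe 13D11 was at 95.21 at 12 h and 99.8 at 18 h, and probe 13A10 at 96.54 at 18 h.

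Among genes outside the members, the closest relatives of Defa5 and S100a8 were also lower from 6 h on. The gene lists that hold these relatives were drawn up with earlier results of these data known. Their p-values are therefore no independent support for the members. S100a9, the partner of S100a8, lies 22.7 kb from it on chromosome 2. Its arrays read 0.16, -0.12 and -0.04 at 1 h and -0.46, -0.23 and -0.43 at 3 h (mean -0.37, limma adjusted p = 0.0490, and 0.0551 after centring on plate medians). They read -0.38, -0.51 and -0.56 at 6 h (mean -0.48, adjusted p = 0.0079) and -0.59, -0.51 and -0.56 at 12 h (mean -0.55, adjusted p = 0.00238). At 18 h they read -1.99, -1.88 and -1.99, a mean of -1.95 ± 0.06 (SD, n = 3, adjusted p = 2.19e-08) or 3.87 times more signal in control RNA. Its 18 h arrays lay closer together than those of S100a8 (SD 0.06 against 0.28). At 6 h the adjusted p was 0.0520 without array 2 and 0.0599 without array 3.

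Np4, an alpha-defensin gene 149.7 kb from Defa5, averaged -0.11 at 1 h and -0.06 at 3 h. It then read -1.29, -0.86 and -1.25 at 6 h (mean -1.13 ± 0.24, SD, n = 3, limma adjusted p = 0.000583), averaged -1.56 at 12 h (adjusted p = 3.05e-05), and read -1.41, -1.91 and -1.14 at 18 h (mean -1.48 ± 0.39, adjusted p = 1.56e-05). RatNP-3b, another alpha-defensin, read -1.14, -0.72 and -0.86 at 6 h (mean -0.91, adjusted p = 0.00746, and 0.0699 without array 1). It averaged -1.10 at 12 h (adjusted p = 0.00157) and read -1.42, -0.81 and -0.55 at 18 h (mean -0.92, adjusted p = 0.0017). The means of Np4 and RatNP-3b at 18 h lay no lower than at 12 h, whereas that of Defa5 went from -1.72 to -3.0. The probes of these 3 defensins came from neighbouring wells of plate 18, and whether they read each other's transcripts was not tested. The difference between 6 h and 1 h passed for none of S100a9, Np4 and RatNP-3b (adjusted p = 0.436, 0.102 and 0.547).

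**Figure D3:**
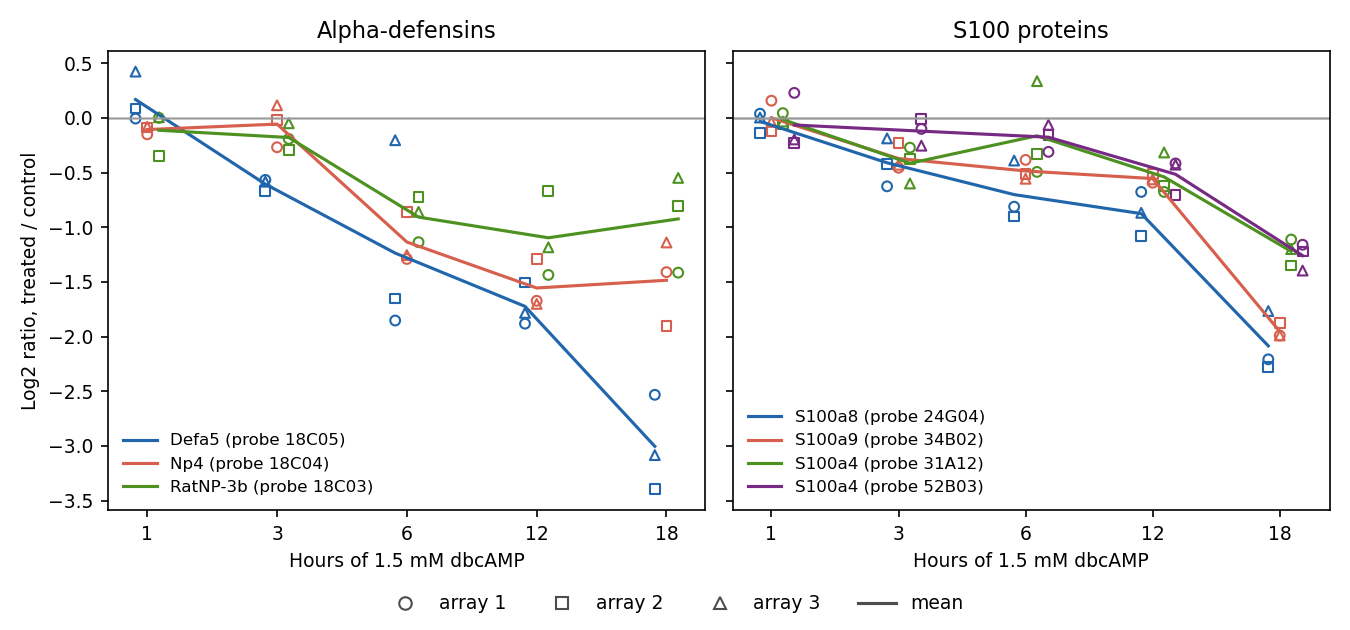
Log2 ratio of treated over control RNA (vertical axis) against hours of dbcAMP (horizontal axis, times evenly spaced) for 3 alpha-defensins, left, and for S100a8, S100a9 and both probes of S100a4, right. Symbols are arrays 1 to 3, moved sideways to be told apart, and lines join means; Np4 and RatNP-3b levelled after 12 h while Defa5 went on to -3.0, and S100a8 and S100a9 ended at -2.09 and -1.95.

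The rest of the neutrophil granule and antimicrobial list did not move as 1 group. Of 12 measured genes, 0 were higher and 3 lower at 6 h, namely S100a9, Np4 and RatNP-3b, where 2.34% of all genes were lower. The same 3 were lower at 12 h, where 4.69% of all genes were lower and 4.1% higher. At 18 h 4 were lower and 2 higher, where 11.4% of all genes were lower and 11.6% higher, and the list median was -0.22 against 0.03 for all genes. The fourth lower gene was Lyz2, a lysozyme, at -0.56 (limma adjusted p = 0.0379), and the higher ones were Cxcr2, a receptor of neutrophil chemokines, at 0.83 (adjusted p = 0.0310), and Pglyrp1, which binds bacterial cell walls, at 0.41 (adjusted p = 0.0328). The call of Cxcr2 was lost without array 1 or 2 (adjusted p = 0.207 and 0.212), that of Pglyrp1 without array 1 or 3 (0.216 and 0.120), and that of Lyz2 without any of the 3 (0.0732 to 0.205). Lcn2 at -0.02, Mmp8 at -0.19, Mmp9 at 0.39, Cxcr1 at 0.36, Defb4 at -0.25 and Defb1 at -0.90 did not pass, and Lyz2, Pglyrp1 and these 6 are named after their values were seen. After centring each array on the median of every probe plate, 0 were higher and 4 lower. Defb1 then passed in place of Lyz2 (limma adjusted p = 0.332 for Lyz2). Scaling the arrays to a common spread left 0 higher and 3 lower.

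The 18 h counts of the lists that follow stand against 11.4% of all genes lower and 11.6% higher. In the wider S100 family, 5 of 7 measured genes were lower at 18 h and 0 higher, with a list median of -0.40. Besides S100a9 these were S100a4, a motility protein, at -1.22 and -1.26 on its 2 probes (limma adjusted p = 6.6e-05 and 8.09e-06), S100a6 at -0.40, S100b, a glial protein, at -0.36 on 1 of 2 probes, and S100a10 at -0.33. Plate centring put S100a10 at 0.06 and S100b at -0.03 (adjusted p = 0.864). Scaling ended the calls of S100a6 (adjusted p = 0.0601), S100b (0.101) and S100a10 (0.112), which left S100a9 and S100a4. The call was lost without array 1 for S100a6 (adjusted p = 0.0703), and without array 2 or 3 for S100b (0.0565 and 0.0946) and S100a10 (0.0883 and 0.0674). At 6 h 2 of 7 were lower, S100a9 and S100a1, against 2.34% of all genes, and S100a1 was already at -0.92 at 1 h. At 12 h 3 were lower, S100a4, S100a6 and S100a9, against 4.69% of all genes.

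Other parts of the NADPH oxidase did not share the 18 h value of Ncf1. Cybb, the catalytic subunit gp91phox, read -0.28, 2.34 and 0.40 at 18 h (mean 0.82 ± 1.36, SD, n = 3, limma adjusted p = 0.120), and without array 1 it passed at 1.37 (adjusted p = 0.0233). Cyba, the p22phox subunit, was at 0.05 (adjusted p = 0.882). Among related oxidases, Duox2 was lower at -0.97 (adjusted p = 0.00973, and -0.56 with 0.0980 without array 2), and Nox1 read -2.14, 0.16 and -1.15 (adjusted p = 0.185). That made 1 of 4 genes lower and 0 higher.

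Of 17 cytotoxic granule and NK cell genes, 2 were higher and 3 lower at 18 h, with a median of 0.14. Srgn, the serglycin that holds granule proteins, read 0.86, 0.91 and 0.83 (mean 0.87 ± 0.04, SD, n = 3, limma adjusted p = 0.000115). Gzmk, a granzyme gene on chromosome 2, averaged 0.69 (adjusted p = 0.0123), but it averaged 0.40 at 1 h and the call was lost without array 2 (adjusted p = 0.0875) or without array 3 (adjusted p = 0.0685). Perforin, Prf1, was at 0.47 (adjusted p = 0.508). The NK cell genes Klrd1 at -0.55, Klrk1 at -0.58 and Nkg7 at -0.75, the last named after its values were seen, were lower. Klrd1 and Klrk1 lost their calls without array 2 (adjusted p = 0.0710 and 0.0910), and Nkg7 without array 1 or 3 (0.118 and 0.0582). After plate centring 1 was higher and 3 lower at 18 h, and after scaling 1 and 1. At 6 h 0 of the 17 passed, against 4.19% of all probes in either direction.

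Of 7 mast cell and basophil genes 1 was higher at 18 h, the tryptase Tpsb2 at 0.99 (limma adjusted p = 0.00441), and 0 lower. Cpa3, a carboxypeptidase of mast cells, did not pass at -0.51 (adjusted p = 0.278), and its arrays read -1.56, -0.74 and 0.78. Cpa3 was at -1.15 without array 3 (adjusted p = 0.00634) and at 0.021 without array 1 (adjusted p = 0.976). No other Schlafen gene was measured. Of 16 Schlafen and interferon-induced genes 1 was higher, Tap2 at 0.47, which was already at 0.50 at 1 h. Opposite in sign to Slfn4, 5 were lower. These were the antiviral Rsad2 at -1.48 (adjusted p = 0.000179, and -0.87 at 1 h), Mx2 at -1.58 (adjusted p = 0.0119, and 0.0599 without array 1) and Ifi27 at -0.80 (adjusted p = 0.000208), besides Oas1b at -0.48 and Irf1 at -0.50, both named after their values were seen. Leaving out any 1 array ended the calls of Tap2 (adjusted p = 0.0570 to 0.0907), Oas1b (0.0769 to 0.125) and Irf1 (0.0557 to 0.310). The list median was -0.25, and 0 were higher and 8 lower after plate centring, 0 and 3 after scaling. Of 9 tetraspanins only Cd151 was higher at 18 h, at 0.31 (adjusted p = 0.0212, lost without array 1 or 3 at 0.127 and 0.0980), and 0 were lower. Cd37, another leukocyte tetraspanin, was at 0.22 at 18 h (adjusted p = 0.306) and higher at 12 h, at 0.52 (adjusted p = 0.0435, lost after plate centring at 0.173 and after scaling at 0.0747).

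Markers of the cells that could carry these genes gave no common direction. Of 20 macrophage and pan-leukocyte genes, 5 were higher at 18 h, Cd86 at 0.80, Ptpn6 at 0.54, Cd4 at 0.59, C1qb at 0.74 and Itgb7 at 0.55, the last 2 named after their values were seen. Without array 3 Cd4 (adjusted p = 0.0828), without array 1 or 3 C1qb (0.244 and 0.121), and without any 1 array Itgb7 (0.0757 to 0.147) no longer passed. Lyn was lower at -1.16, but it was at -0.80 at 1 h. Leaving out each array gave 2 to 4 higher and 1 to 3 lower. Ptprc, the CD45 of all leukocytes, read from -1.11 to 0.07 at 18 h (mean -0.47, limma adjusted p = 0.0858). Of 13 T and B lymphocyte genes Cd8a was higher at 0.95 (adjusted p = 0.000512) and Il2rb lower at -0.69 (adjusted p = 0.00323). Over all 7 leukocyte lists, 12 of 89 measured genes were higher (13.5%) and 15 lower (16.9%), with a median of -0.01, against the 11.6% and 11.4% of all genes given above. After plate centring the split was 6 higher and 18 lower, and after scaling 6 and 10. With the 18 h arrays fitted alone, the calls were 1 higher, Srgn, and 4 lower, S100a9, Np4, Rsad2 and Mx2.

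Markers of the other cells of a DRG culture are given by their counts at 18 h, where 2 of 18 sensory neuron markers were higher and 3 lower, 2 of 14 Schwann cell and satellite glia markers higher and 3 lower, 1 of 13 fibroblast markers higher and 4 lower, and 0 of 8 endothelial markers either way. The list medians were -0.07, -0.14, -0.25 and -0.01 in that order, against 0.03 for all genes. The lower fibroblast markers, Col1a1, Dcn, Acta2 and Vim, made up 30.8% of their list against 11.4% of all genes, and 10 of its 13 means were below 0. Col1a1 and Acta2 each passed on 1 of 2 probes. Their other probes were at -0.14 and -0.26 (limma adjusted p = 0.663 and 0.494). Plate centring left 2 of these 4 markers lower and scaling 1. Leaving out each array gave 3 to 4 lower fibroblast markers and 0 to 1 higher, as Pdgfra no longer passed without array 3 (limma adjusted p = 0.158), Acta2 without array 1 or 2 (0.0632 and 0.0772) and Vim without array 2 or 3 (0.0988 and 0.0605). For neurons it gave 0 to 1 higher and 2 to 3 lower. There Scn11a no longer passed without any 1 array (0.0580 to 0.142), Nefl without array 3 (0.268) and Stmn2 without array 2 (0.0546). Nefl passed on probe 27F06, at 1.03 and already at 0.89 at 1 h, while its probe 52A12 was at -0.007 (adjusted p = 0.969). Scn11a was at 0.30 at 18 h and already at 0.46 at 1 h. For glia leaving out each array gave 1 to 2 higher and 1 to 3 lower, Gfap being lost without array 2 or 3 (0.0954 and 0.102) and both probes of Ngfr without array 3 (0.101 and 0.0588). For endothelial markers leaving out each array gave 0 to 1 higher, Flt1 without array 1 (0.0317) or Vwf without array 2 (0.0214), and 0 lower. Plate centring made Flt1 and Tek pass as higher (0.0258 and 0.0318). Scn11a, Gfap and Pdgfra are named after their values were seen. Because the ratios give no level, whether the defining markers of leukocytes were detected at all cannot be read from them. The part of a change in cell makeup in the ratios of the members was not tested.

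**Figure D4:**
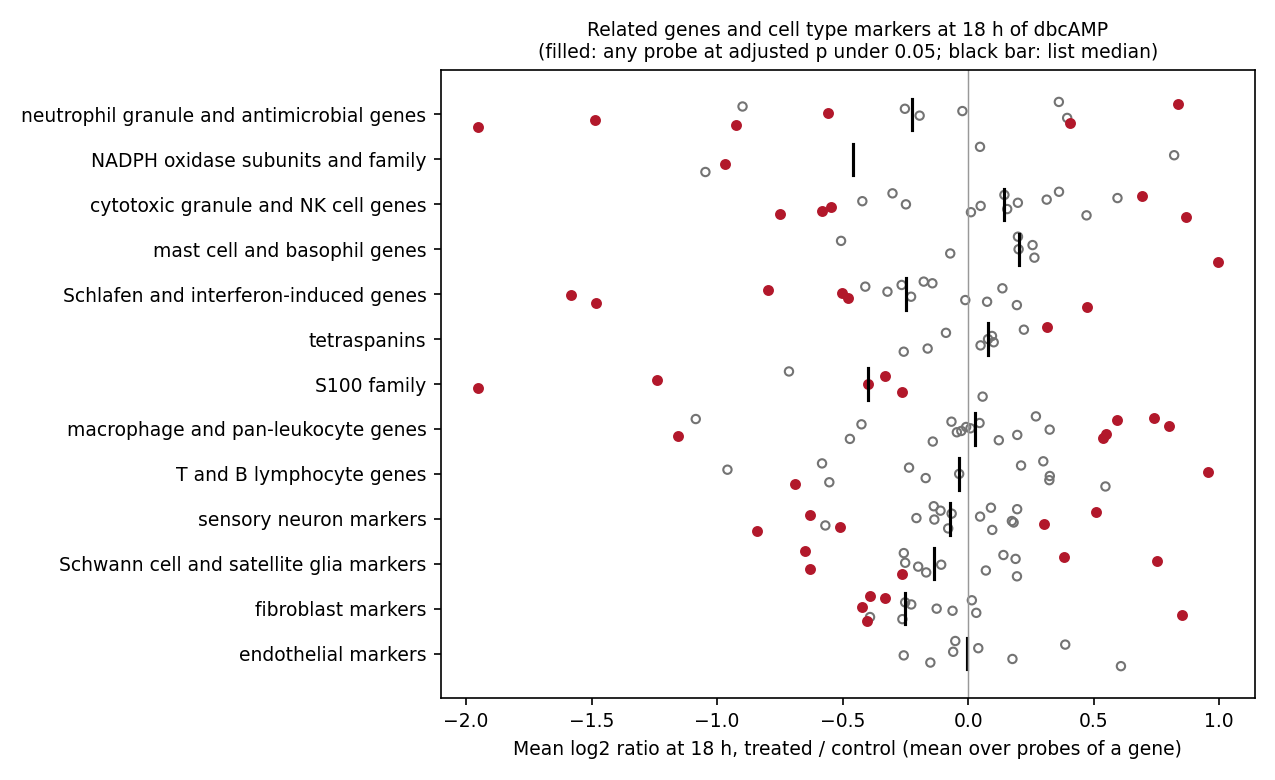
Mean log2 ratio at 18 h (horizontal axis) of each measured gene of 13 lists (rows), the members left out. Filled red points are genes with a probe at adjusted p under 0.05 (limma), open points are the other genes, and black bars are list medians; the S100 family lies to the left with a median of -0.40, and the macrophage and pan-leukocyte genes spread around 0.03.

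By Pearson correlation over arrays, the named probes most like Defa5 were S100a8 (r = 0.923, 15 arrays), Serinc5 (0.915) and S100a4 (0.890). For S100a8 they were Serinc5 (0.977), S100a9 (0.943) and the stress-induced transcription factor Atf3 (0.940), for Ncf1 Fbxl20 (0.895), Tmod1 (0.891) and Enpp2 (0.881). The most like Gzmb probe 13D11 were Ahr (0.919), Col18a1 (0.908) and Npy (0.892), and the most like probe 13A10 were Pgk1 (0.930), Arg1 (0.927) and Adcy7 (0.892, all 14 arrays). Probe 13E12 of Gzmb was most like Capn9 (0.809), Dck (0.795) and Cltrn (0.775). For Slfn4 these were Ampd3 (0.864), Chdh (0.836) and Pnliprp2 (0.817, 14 arrays), and for Cd53 Ctf1 (0.826), Mt1 (0.822) and Rfc1 (0.820). These values describe 15 arrays that share their times and their wider spread at 18 h, and they were picked as the highest among all named probes. Among the members themselves, Defa5 and Ncf1 correlated at 0.477, S100a8 and Ncf1 at 0.683, Ncf1 and Gzmb probe 13A10 at -0.893, and Slfn4 and Cd53 at 0.242. Defa5 and S100a8 correlated with Gzmb probe 13D11 at -0.805 and -0.822, and with probe 13E12 at 0.306 and 0.023. The late values by which the members were chosen enter all correlations among them.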

How the data were processed

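The authors deposited linear ratios, 1 for each probe and array, of treated (Cy5) over control (Cy3) RNA labelled with 3DNA dendrimers. How background and dyes were corrected before deposit is not given in the sources used here. Scanner intensities were not analysed here. The log2 of each ratio was taken without centring. Genes came from the platform annotation (4423 probes with 1 symbol, 4375 matched to GRCr8 by gene ID), which can be old. Probes with a ratio on at least 2 of 3 arrays of a time were tested against 0 with limma 3.58.1 in R 4.3.3 (lmFit and eBayes, 1 mean per time, all 15 arrays sharing the spread), two-sided, with Benjamini-Hochberg adjustment over all probes and a threshold of 0.05. A listed gene counted as called if any probe was. The fit was tested on simulated data, and plots were drawn with matplotlib 3.10.9.

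The members and the gene lists were chosen with earlier results of these data known. Named were all members, the 4 genes of smallest p at 18 h in each list, called list genes with a mean of at least 1 in size, fixed partners of the members, and the 3 probes most like each member. The alternatives changed the centring (array or plate medians), the spread of arrays (scaled, weighted), the arrays fitted (1 comparison alone, the 9 of 1, 3 and 6 h, each array left out), the prior (robust, statmod 1.5.0), the block (replicate number), the test (the methods' t-test), the filter for missing ratios, the threshold (0.01) and the average. With 3 arrays a time, precision is limited by their number.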

Additional observations from a re-analysis of the deposited data

How the results depend on the processing

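The share of all probes called under each alternative is not given here, for the members or for the lists. Among the members, the count called at 1 h stayed at 0 under every alternative. At 3 h it was 0, but 1 after scaling to a common spread, 3 with array weights, 2 with the 3 h arrays alone and 1 with the 9 arrays of 1, 3 and 6 h. At 6 h it was 2, but 3 with array weights, 0 by the methods' t-test after adjustment, 1 at a threshold of 0.01, 0 with the 6 h arrays alone, and 0 to 2 leaving out each array. For 6 h against 1 h it was 0, but 2 with array weights, 1 in a fit without the wide arrays outside 18 h, which was added after the data were seen, and 0 to 1 leaving out each array.

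The 12 leukocyte genes higher at 18 h became 6 after scaling, 6 after centring on plate medians, 7 with array weights, 6 at a threshold of 0.01, 1 with the 18 h arrays alone and 0 by the t-test, and 8 to 10 leaving out each array. The 15 lower ones became 10 after scaling, 18 after centring on plate medians, 10 with array weights, 8 at a threshold of 0.01, 4 with the 18 h arrays alone and 0 by the t-test, and 10 to 16 leaving out each array. With the 6 h arrays alone the 6 h calls of S100a9, Np4 and RatNP-3b were lost (adjusted p = 0.290, 0.122 and 0.147). The 18 h means of Defa5 and S100a8 were -2.23 and -1.54 after scaling. The cause was not tested.

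Some signs turned. After centring on plate medians these were Gzmb probe 13A10 at 1 h (-0.0089), Cd53 at 6 h (-0.10) and, at 18 h, Mcpt10 (-0.026), Cd37 (-0.0068), S100a10 (0.056) and Stmn2 (0.023), and with array weights Gzmb probe 13D11 at 1 h (0.015). Leaving out each array gave ranges across 0 at 1 h for S100a8 (-0.066 to 0.022), Gzmb probe 13A10 (-0.092 to 0.13), Gzmb probe 13D11 (-0.10 to 0.11) and Cd53 (-0.16 to 0.053), at 3 h for Gzmb probe 13D11 (-0.24 to 0.096) and Cd53 (-0.22 to 0.034), and at 6 h for Gzmb probes 13D11 (-0.21 to 0.65) and 13E12 (-0.14 to 0.067). They did so for 6 h against 1 h in Gzmb probes 13A10 (-0.012 to 0.21) and 13D11 (-0.20 to 0.65) and in Cd53 (-0.019 to 0.20), and at 18 h in Cyba (-0.11 to 0.17), Cpa3 (-1.15 to 0.021) and Gzmb probe 13E12 (-0.16 to 0.24).

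No pairing of the arrays by replicate number was seen, and whether arrays of a number share a culture is not known. Of 30 pairs of arrays with the same number at different times 0 correlated above 0.1 in their deviations from the time means (-0.05 to 0.07), and 3 of 15 arrays correlated best with their own number. With the replicate block 2 members were called at 6 h, as without it, and the leukocyte counts at 18 h stayed within 1.5 times. At 18 h it ended the calls of Lyz2 (adjusted p = 0.0582) and Itgb7 (adjusted p = 0.0565) and made Cd28 pass as a lower lymphocyte gene (adjusted p = 0.0354), which took that list from 1 lower to 2.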
